A study of Rattus norvegicus with 15 samples.

Results

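The 10 genes described here, Xbp1, Hspa5, Hsp90b1, Dnajb9, Sdf2l1, Herpud1, Pdia4, Calr, Edem1 and Creld2, code for the transcription factor XBP1 and for endoplasmic reticulum proteins whose genes XBP1 and the factor ATF6 are known to drive. They were chosen by symbol, with earlier results of these data known, and all 10 were found among the 21576 genes of the deposited liver table. All 10 passed the filter on low counts, which left 13163 genes for testing. RNA was sequenced from livers of male Sprague-Dawley rats in 3 groups of 5 libraries. ZXD rats received Zexie Decoction, a herbal preparation of Alisma and Atractylodes rhizomes, orally (2.2 g per kg each day, 4 weeks), after 4 weeks on a lipid-raising feed. HFD rats ate the same feed and received saline in place of the decoction. CON rats ate normal chow. The feed of ZXD and HFD rats held 66% base forage, 16.7% sucrose, 8.3% yolk, 7% lard, 2% cholesterol, 0.3% sodium cholate (a bile salt) and 0.2% propylthiouracil, a drug that blocks thyroid hormone synthesis. Diet, bile salt and drug were therefore given together, and their effects cannot be told apart. The labels name 10 rats per group and do not say which rats gave the libraries, so p-values reflect only how these libraries vary, and that variation may be technical.

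Proteins that hepatocytes secrete, albumin among them, are folded in the endoplasmic reticulum. When unfolded protein builds up there, the sensor IRE1 removes a short intron from Xbp1 mRNA, and the membrane protein ATF6 is cut to release a transcription factor. Both factors raise genes for chaperones, for disulfide and glycan handling, and for the disposal of misfolded protein, a programme named the unfolded protein response. Gene counts do not separate spliced from unspliced Xbp1 mRNA, so the values below are total Xbp1 mRNA and not the activity of either factor.

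Many genes of this programme carry a known promoter element, the endoplasmic reticulum stress response element. It consists of CCAAT, which binds NF-Y, then 9 bases of any kind, and then CCACG, which binds ATF6 or XBP1. The RefSeq promoter table of rat build GRCr8 held all 10 genes, and the 250 bases before each annotated start were searched on both strands. The element, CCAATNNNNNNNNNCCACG, was present before 5 of the 10 genes (Xbp1, Hspa5, Hsp90b1, Calr and Creld2) and in 0.0657% of 33469 promoter windows of the same length. A shorter form, ATTGG and CCACG with 1 free base between them, was present before Herpud1 and in 0.0418% of the windows. The XBP1-binding core TGACGTG was present before Hspa5 and in 1.54% of the windows, and these letters do not overlap those of the element found there. Windows of Dnajb9, Sdf2l1, Pdia4 and Edem1 held none of these letters, which says nothing of binding by either factor.

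The 2 complete windows shown are those of Xbp1, the gene of the factor, and Hspa5, the central chaperone. They are given 5′ to 3′ on the strand of the gene, with matches in capitals. Xbp1 lies on the plus strand, and its window is chr14:84604373-84604622. Hspa5 lies on the plus strand, and its window is chr3:38452766-38453015.
Xbp1: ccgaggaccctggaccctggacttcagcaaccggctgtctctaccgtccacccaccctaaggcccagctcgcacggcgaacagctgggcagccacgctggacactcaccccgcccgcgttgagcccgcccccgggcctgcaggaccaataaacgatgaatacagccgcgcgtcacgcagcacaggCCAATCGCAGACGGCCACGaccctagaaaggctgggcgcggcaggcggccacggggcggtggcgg
Hspa5: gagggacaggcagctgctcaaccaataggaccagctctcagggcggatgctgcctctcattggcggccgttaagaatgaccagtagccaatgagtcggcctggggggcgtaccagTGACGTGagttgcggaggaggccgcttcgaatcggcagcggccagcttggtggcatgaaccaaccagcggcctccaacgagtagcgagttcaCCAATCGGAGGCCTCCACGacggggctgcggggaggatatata

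The matches before the other genes are set beside those of Xbp1 and Hspa5 to show the shared ends, in capitals, and the free bases between them. Each is written in the direction of the element. Those of Calr and Creld2 and the nearer one of Hsp90b1 lie on the strand opposite to the gene. First bases lie 65 bases before the start of Xbp1, 43 before Hspa5 and 124 before Herpud1.
Xbp1: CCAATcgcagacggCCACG
Hspa5: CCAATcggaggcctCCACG
Hsp90b1, farther match: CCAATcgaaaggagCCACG
Hsp90b1, nearer match: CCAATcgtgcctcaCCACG
Calr: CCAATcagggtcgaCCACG
Creld2: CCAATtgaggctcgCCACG
Herpud1, shorter form: ATTGGgCCACG

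Libraries held 12688915 to 13532245 counts in ZXD, 12552449 to 13687385 in HFD and 12972523 to 14228052 in CON. Levels are CPM, the reads of a gene relative to library size and adjusted by TMM, edgeR's correction for the makeup of a library, unless FPKM is named. TMM factors were 1.01 to 1.28 in ZXD and 1.07 to 1.13 in HFD, against 0.793 to 0.867 in CON. Albumin took 1.76% to 5.12% of counts in ZXD and 2.96% to 5.2% in HFD, against 7.53% to 9.22% in CON. The scale therefore matters for any comparison with CON. Scaled to library totals alone, all genes had a median log2 fold change of 0.44 instead of 0.02 in HFD against CON, and 0.46 instead of 0.03 in ZXD against CON. In bulk liver, fewer cells of a type and less RNA per cell cannot be told apart.

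Among the 10 genes, the deposited FPKM, which is per length and so can be compared between genes, had one gap in CON livers. In CON livers, Calr, Hsp90b1, Herpud1, Xbp1 and Hspa5 had mean FPKM of 288, 259, 256, 254 and 231, each overlapping in range with the next. Edem1 and Pdia4 followed at 181 and 122 FPKM, also overlapping in range with the gene above, and Dnajb9, Creld2 and Sdf2l1 were lowest at 37.3, 19.7 and 9.40 FPKM. The lowest Pdia4 value in CON, 77.2 FPKM, was above the highest of Dnajb9, 48.2 FPKM. In ZXD and HFD livers the mean FPKM of Xbp1 was 150.2 and 167, below Calr, Hsp90b1, Hspa5 and Herpud1 in both groups. Herpud1 had the highest mean in HFD, 277 FPKM, though its range overlapped with that of Calr at 272 FPKM. Counts per gene and library ran from 52 for Sdf2l1 to 23454 for Edem1, so counting error was small beside the spread between libraries.

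**Figure D1:**
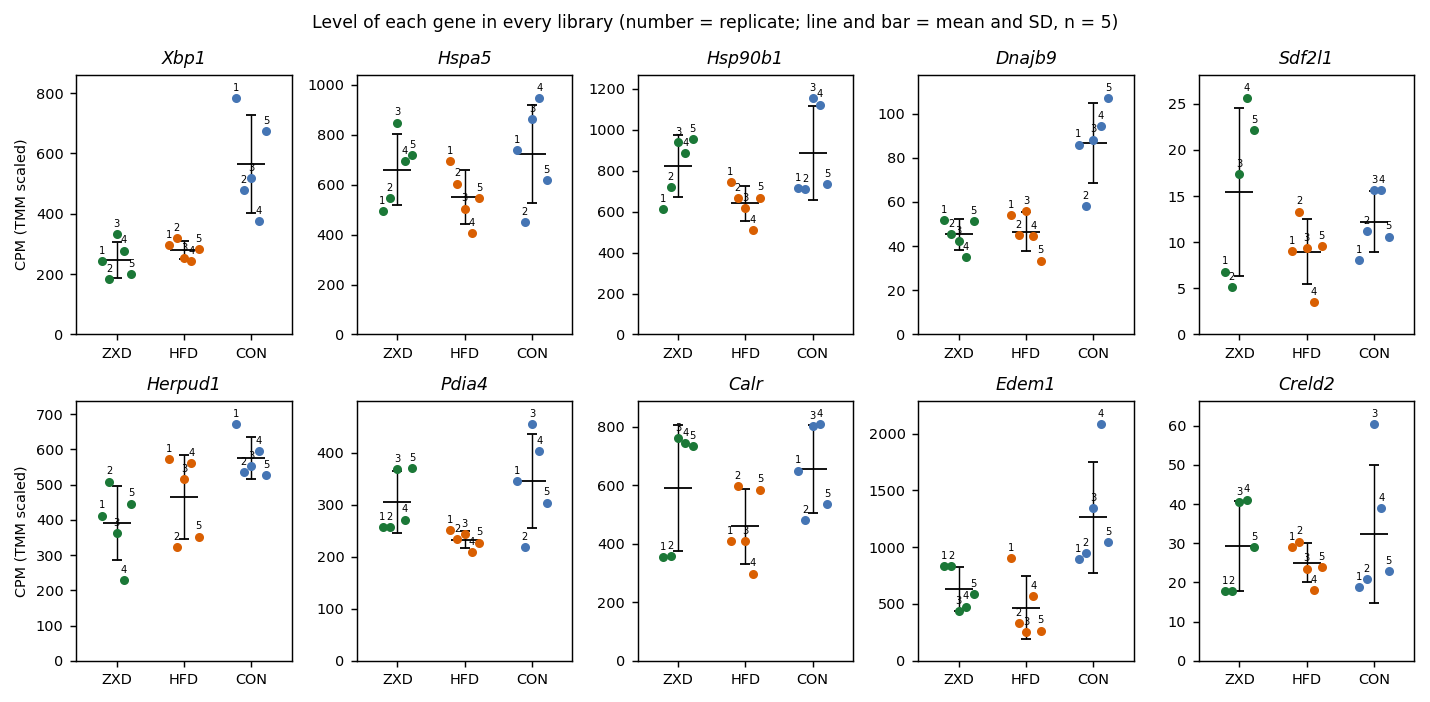
Level of each of the 10 genes in every library, in TMM-scaled CPM on axes that start at 0. Points are libraries with their replicate numbers, and lines and bars are the mean and SD of 5. All 10 diet libraries (ZXD and HFD) lie below the 5 CON libraries for Xbp1 and Dnajb9, whereas the groups overlap for Hspa5 and Calr.

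The comparison of HFD with CON asked what the lipid-raising feed changed in the liver. Xbp1 mRNA was at 279 ± 30.5 CPM in HFD livers and 565 ± 162 CPM in CON livers (SD, n = 5 each). The genes of the chaperone partner Dnajb9, the disposal factor Edem1 and the oxidoreductase Pdia4 also fell. Of the 10 genes, 4 fell and 0 rose at an edgeR adjusted p under 0.05, where 10.9% of all tested genes fell, 10.0% rose and 21.0% did either. The median log2 fold change of the 10 was -0.49, against 0.02 over all tested genes, and on library totals it was -0.06 against 0.44. All 10 log2 fold changes were negative, but on library totals those of Hspa5, Herpud1 and Creld2 were positive, at 0.039, 0.11 and 0.06.

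Xbp1, which codes for the factor itself, had 295, 319, 254, 244 and 283 CPM in HFD 1 to 5, against 783, 478, 517, 375 and 673 CPM in CON 1 to 5. Every HFD library lay below every CON library, and the HFD values were closer together, with a coefficient of variation of 10.9% against 28.7% in CON. Groups that do not overlap in this direction were found for 8.46% of all tested genes, and in the opposite direction for 6.59%. The log2 fold change was -1.02 (edgeR adjusted p = 0.00400, SE 0.21), a ratio of 0.494. The call held in each of the other settings, where the log2 fold change ran from -1.12 to -0.60.

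The disposal of misfolded glycoproteins is served by Edem1, a mannosidase-like protein that marks them for export from the endoplasmic reticulum. Edem1 had 906, 333, 252, 570.1 and 265 CPM in HFD 1 to 5, against 898, 948, 1344, 2079.8 and 1043 CPM in CON 1 to 5. HFD 1 lay within the CON range, just above CON 1, and the other 4 HFD libraries lay below every CON library. This was the largest fall of the 10, at a log2 fold change of -1.44 (edgeR adjusted p = 0.0137, SE 0.36), and it was called in every setting tried, from -1.83 to -1.01. Herpud1, a membrane protein of the ubiquitin ligase complex that removes misfolded protein, had 571, 323, 516, 561 and 352 CPM in HFD 1 to 5, against 670.4, 535, 553, 594 and 526 CPM in CON 1 to 5. HFD 2 and HFD 5 were low, and HFD 1 and HFD 4 lay within the CON range. Its log2 fold change of -0.31 (SE 0.21) did not pass (edgeR adjusted p = 0.304), with a 95% interval from -0.76 to 0.14.

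Hspa5 codes for BiP, the central Hsp70 chaperone of the endoplasmic reticulum, and Dnajb9 and Sdf2l1 act with it, Dnajb9 as a J-domain protein. Dnajb9 had 54.0, 45.0, 55.9, 44.6 and 33.4 CPM in HFD 1 to 5, against 86.0, 58.1, 88.2, 94.3 and 107 CPM in CON 1 to 5. All HFD values lay below all CON values, with a gap from 55.9 CPM in HFD 3 to 58.1 CPM in CON 2. The log2 fold change was -0.89 (edgeR adjusted p = 0.00292, SE 0.17), and it was called in every setting, from -0.99 to -0.48. Hspa5 itself had 694, 604, 504, 406 and 545 CPM in HFD 1 to 5, against 737, 449, 862, 946 and 617 CPM in CON 1 to 5. These groups overlapped, and HFD 4 alone lay below every CON library. Its log2 fold change was -0.39 (edgeR adjusted p = 0.201, SE 0.22), with an interval from -0.85 to 0.07, and was 0.039 on library totals. Sdf2l1 was the least abundant, with 9.06, 13.3, 9.38, 3.54 and 9.56 CPM in HFD 1 to 5, against 8.08, 11.2, 15.6, 15.6 and 10.6 CPM in CON 1 to 5. HFD 4 was the lowest of the 10 libraries, the groups overlapped, and the log2 fold change was -0.45 (edgeR adjusted p = 0.459, SE 0.42).

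Hsp90b1 codes for GRP94, the Hsp90 chaperone of the endoplasmic reticulum, and Calr for calreticulin, a lectin chaperone that also binds calcium. Hsp90b1 had 744, 665, 619, 509.6 and 669 CPM in HFD 1 to 5, against 715, 710.4, 1155, 1123 and 735 CPM in CON 1 to 5. Below every CON library lay 4 of the 5 HFD libraries, but the log2 fold change of -0.47 (SE 0.19) did not pass (edgeR adjusted p = 0.0887). Calr had 409, 598, 409, 298 and 585 CPM in HFD 1 to 5, against 650.3, 481, 803, 808 and 535 CPM in CON 1 to 5. HFD 2 and HFD 5 lay within the CON range and the other 3 below it, with a log2 fold change of -0.51 (edgeR adjusted p = 0.183, SE 0.27).

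Pdia4 codes for a protein disulfide isomerase, and Creld2 for a smaller secretory-pathway protein that endoplasmic reticulum stress induces. Pdia4 had 251, 233, 243, 209 and 227 CPM in HFD 1 to 5, against 345, 219, 454, 403 and 304 CPM in CON 1 to 5. HFD was tight, with a coefficient of variation of 6.86%, and CON 2 was the one CON library inside the HFD range. The log2 fold change was -0.57 (edgeR adjusted p = 0.0392, SE 0.18). This call was lost when any of CON 1, CON 3, CON 4, CON 5, HFD 2, HFD 3, HFD 4 or HFD 5 was left out (edgeR adjusted p from 0.0518 to 0.112), and on library totals (log2 fold change -0.14, edgeR adjusted p = 0.526). Creld2 had 29.1, 30.4, 23.5, 18 and 23.9 CPM in HFD 1 to 5, against 18.8, 20.8, 60.3, 39.0 and 22.8 CPM in CON 1 to 5. CON 3 was the highest, and without it the log2 fold change was -0.011 in place of -0.37 (edgeR adjusted p = 0.431, SE 0.33).

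**Figure D2:**
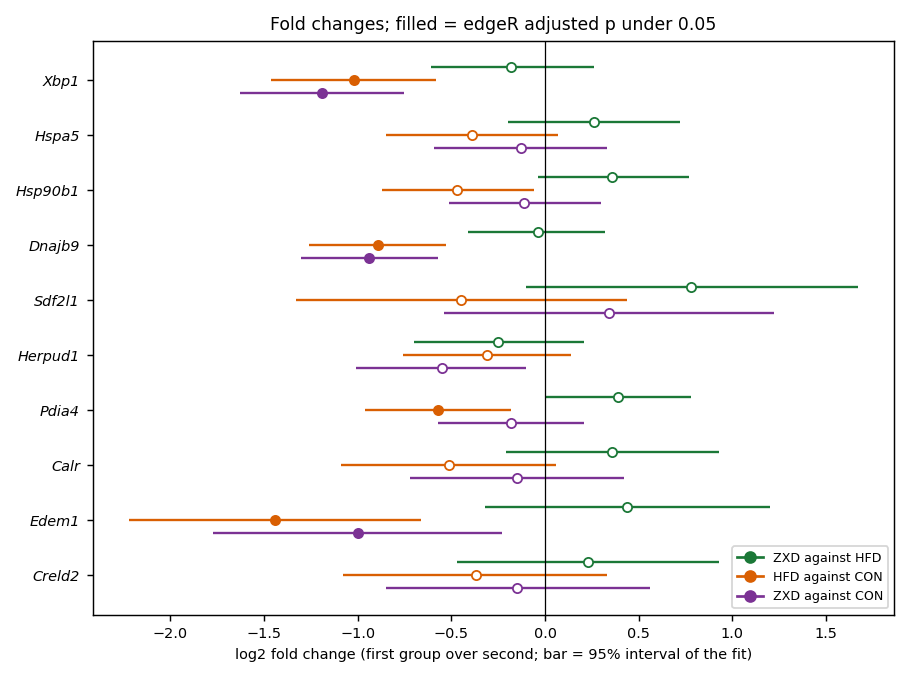
Log2 fold changes of the 10 genes in the 3 comparisons, with bars for the 95% interval of the fit and filled points where the edgeR adjusted p is under 0.05. In HFD against CON the filled points are Xbp1 (-1.02), Dnajb9 (-0.89), Pdia4 (-0.57) and Edem1 (-1.44), and in ZXD against HFD no point is filled.

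Markers of several cell types moved between the same groups, while those of some others did not. Endothelial markers summed to 65.2 to 263 CPM in HFD, against 59.8 to 279 CPM in CON, with 0 of 5 called. Of 6 stellate cell markers, 1 was lower (Lrat) and 0 higher. The summed level of 10 hepatocyte markers was 74422 to 105922 CPM in HFD, against 157369 to 196802 CPM in CON, with 3 of 10 called lower (Alb, Ttr and Serpina1) and 0 higher. This sum is weighted toward the most abundant markers, albumin among them, and 7 of the 10 were not called. The sum of 14 macrophage markers was 468 to 1626 CPM in HFD, against 259 to 934 CPM in CON, with 4 of 14 higher. The sum of 9 B and plasma cell markers, cells in which XBP1 is known to be high, was 7.09 to 21.8 CPM in HFD, against 2.38 to 6.24 CPM in CON. Of the 8 that were tested, 3 were higher and 0 lower. T cell markers summed to 23.4 to 83.1 CPM in HFD, against 10.7 to 32.7 CPM in CON, with 4 of 5 tested higher. Cholangiocyte markers summed to 49.1 to 91.2 CPM in HFD, against 16.7 to 26.6 CPM in CON, with 3 of 5 higher. The part of these shifts in the falls of Xbp1, Dnajb9, Edem1 and Pdia4 was not tested. Of 7 pancreatic acinar markers, Prss1, Ctrb1 and Pnlip were at 0 counts in all 15 libraries. The 7 summed to 9.67 to 11.2 CPM in HFD, against 5.79 to 20.7 CPM in CON. Of the 2 that were tested, 1 (Cpb1) was higher in HFD and in ZXD, each against CON.

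The comparison of ZXD with HFD asked what the decoction changed on the same feed. No member passed the test, and neither did any other gene. edgeR called 0% of the 13163 genes higher and 0% lower, while 2167 had an unadjusted p under 0.05, and DESeq2 called 200 higher and 119 lower. DESeq2 and limma voom each called 0 of the 10 genes. The log2 fold change was positive in 7 of the 10 and negative in 3, with a median of 0.31 against 0.02 over all genes.

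Pdia4 had 257, 257, 368, 271 and 370.2 CPM in ZXD 1 to 5, against 209 to 251 CPM in HFD. It was the only one of the 10 genes whose ZXD libraries lay above every HFD library, a pattern found in 2.14% of all tested genes, against 1.53% with every ZXD library below. Its log2 fold change was 0.39 (SE 0.18) with an unadjusted p of 0.0493 and an edgeR adjusted p of 0.301. Sdf2l1 had 6.81, 5.15, 17.4, 25.6 and 22.1 CPM in ZXD 1 to 5, against 3.54 to 13.3 CPM in HFD. ZXD 3, ZXD 4 and ZXD 5 lay above every HFD library and the other two within the HFD range. The log2 fold change of 0.78 (edgeR adjusted p = 0.354, SE 0.42) was the largest of the 10 in this comparison, with an interval from -0.10 to 1.67.

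The same 3 ZXD libraries were the highest of their group for other chaperones. Hspa5 had 495, 545, 848, 693 and 718 CPM in ZXD 1 to 5, Hsp90b1 had 612, 722, 941, 885 and 955 CPM, and Calr had 354, 357, 762, 744 and 735 CPM. Creld2 had 17.8, 17.8, 40.5, 41.1 and 29.1 CPM. For 6 of the 10 genes (Hspa5, Hsp90b1, Sdf2l1, Pdia4, Calr and Creld2), ZXD 3, ZXD 4 and ZXD 5 held the 3 highest ZXD values. The share of all tested genes with this order was not computed, so it may be common. For Pdia4 the gap was small, from 257 CPM in ZXD 1 and ZXD 2 to 271 CPM in ZXD 4. Calr lay at 357 CPM or less in ZXD 1 and ZXD 2 and at 735 CPM or more in the other 3. None of these passed against HFD, where the log2 fold changes were 0.26 for Hspa5 (edgeR adjusted p = 0.540, SE 0.22), 0.36 for Hsp90b1 (edgeR adjusted p = 0.353, SE 0.19), 0.36 for Calr (edgeR adjusted p = 0.501, SE 0.27) and 0.23 for Creld2 (edgeR adjusted p = 0.739, SE 0.33).

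Edem1, Herpud1 and Dnajb9 ordered the ZXD libraries differently. Edem1 had 831, 830, 434, 476 and 589 CPM in ZXD 1 to 5, against 252 to 906 CPM in HFD. Its 2 highest ZXD values were thus in ZXD 1 and ZXD 2, the libraries lowest in Calr and Creld2. Herpud1 had 412, 508, 363, 229 and 446 CPM in ZXD 1 to 5, against 323 to 571 CPM in HFD, and ZXD 4 lay below every HFD library. Dnajb9 had 51.9, 45.6, 42.4, 35.0 and 51.5 CPM in ZXD 1 to 5, within the HFD range of 33.4 to 55.9 CPM. The summed macrophage markers were 1309, 793, 2699, 3064 and 1798 CPM in ZXD 1 to 5, so ZXD 3, ZXD 4 and ZXD 5 were also highest in these, and the part of this in the chaperone levels was not tested. Hepatocyte markers summed to 90912, 104424, 84682, 54214 and 86308 CPM in ZXD 1 to 5, lowest in the same 3 libraries, and their part was not tested. ZXD 4 also had the highest TMM factor of the group, 1.28, and the lowest albumin share, 1.76%. Endothelial markers summed to 271 to 438 CPM in ZXD, against 65.2 to 263 CPM in HFD, with 0 of 5 called. The part of endothelial markers was not tested either.

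Dnajb9 had the smallest log2 fold change of the 10, -0.04 (edgeR adjusted p = 0.919, SE 0.17), with an interval from -0.41 to 0.32, and it was positive without HFD 1 (0.018), HFD 3 (0.033) or ZXD 4 (0.040). Xbp1 was at -0.18 (edgeR adjusted p = 0.673, SE 0.20) and its interval ran from -0.61 to 0.26. Edem1 was at 0.44 (edgeR adjusted p = 0.532, SE 0.36) and Herpud1 at -0.25 (edgeR adjusted p = 0.560, SE 0.21).

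**Figure D3:**
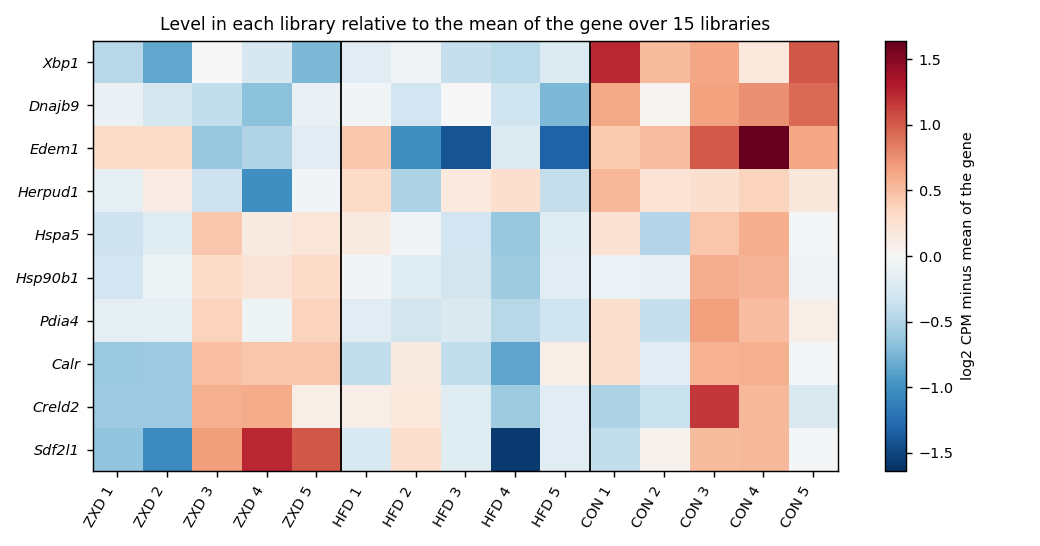
Log2 CPM of each gene minus its own mean over the 15 libraries, with ZXD, HFD and CON libraries from left to right (red above, blue below the mean). Hspa5, Hsp90b1, Pdia4, Calr, Creld2 and Sdf2l1 are higher in ZXD 3, ZXD 4 and ZXD 5 than in ZXD 1 and ZXD 2, and Xbp1 and Dnajb9 are highest in CON libraries.

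The comparison of ZXD with CON asked how the livers of decoction-treated rats on the feed stood against those on chow. Xbp1, Dnajb9 and Edem1 fell, and the other 7 genes did not pass, so of the 10 genes 3 fell and 0 rose, where 14.8% of all tested genes fell, 17.9% rose and 32.7% did either. The median log2 fold change was -0.17 against 0.03 over all genes, and on library totals it was 0.28 against 0.46. ZXD against CON and ZXD against HFD share the ZXD libraries, and ZXD against CON and HFD against CON share the CON libraries.

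Xbp1 had 243, 184, 333, 278 and 199 CPM in ZXD 1 to 5, below the CON range of 375 to 783 CPM, with a log2 fold change of -1.19 (edgeR adjusted p = 0.00126, SE 0.21). Dnajb9, at 45.3 ± 7.04 CPM in ZXD and 86.6 ± 17.8 CPM in CON (SD, n = 5 each), fell by 0.94 on the log2 scale (edgeR adjusted p = 0.00185, SE 0.17). Both were called in every setting tried. Edem1, at 632 ± 190 CPM in ZXD and 1263 ± 489 CPM in CON, had no overlap between the groups and a log2 fold change of -1.0 (edgeR adjusted p = 0.0453, SE 0.36). That call was lost when any of CON 2, CON 3, CON 4, CON 5, HFD 4, ZXD 3, ZXD 4 or ZXD 5 was left out (edgeR adjusted p from 0.0502 to 0.127), and on library totals (-0.58, edgeR adjusted p = 0.171).

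Herpud1, at 392 ± 105 CPM in ZXD and 576 ± 59.1 CPM in CON, lay lower in every ZXD library than in any CON library, as did 9.79% of all tested genes, while 8.20% lay higher. Its log2 fold change of -0.55 (edgeR adjusted p = 0.0569, SE 0.21) was not called, though it was by DESeq2 (adjusted p = 0.0317) and when HFD 2 (edgeR adjusted p = 0.0488) or ZXD 2 (edgeR adjusted p = 0.0261) was left out. The chaperones did not pass, and their 95% intervals were wide, such as -0.59 to 0.33 for Hspa5 and -0.72 to 0.42 for Calr. Calr lay below every CON library in ZXD 1 and ZXD 2 (354 and 357 CPM). In ZXD 3, ZXD 4 and ZXD 5 it lay within the CON range of 481 to 808 CPM. Hspa5 was at 659 ± 142 CPM in ZXD and 722 ± 197 CPM in CON, a log2 fold change of -0.13 (edgeR adjusted p = 0.677, SE 0.22) that was 0.31 on library totals. Hsp90b1 was at -0.11 (edgeR adjusted p = 0.697, SE 0.19), Calr at -0.15 (edgeR adjusted p = 0.705, SE 0.27), Pdia4 at -0.18 (edgeR adjusted p = 0.472, SE 0.18) and Creld2 at -0.15 (edgeR adjusted p = 0.771, SE 0.33), and on library totals these were 0.33, 0.31, 0.25 and 0.32. Sdf2l1, at 15.4 ± 9.12 CPM in ZXD and 12.2 ± 3.30 CPM in CON, was at 0.34 (edgeR adjusted p = 0.562, SE 0.41).

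The hepatocyte marker sum was 54214 to 104424 CPM in ZXD, against 157369 to 196802 CPM in CON, with 4 of 10 lower. Macrophage markers summed to 793 to 3064 CPM in ZXD, against 259 to 934 CPM in CON, with 11 of 14 higher, and B and plasma cell markers to 8.34 to 31.7 CPM in ZXD, against 2.38 to 6.24 CPM in CON, with 5 of 8 tested higher. T cell markers summed to 33.2 to 116 CPM in ZXD, against 10.7 to 32.7 CPM in CON, with 5 of 5 tested higher. For endothelial markers the sums were 271 to 438 CPM in ZXD and 59.8 to 279 CPM in CON, with 2 of 5 higher (Stab2 and Lyve1). For cholangiocyte markers they were 38.3 to 82.7 CPM in ZXD and 16.7 to 26.6 CPM in CON, with 2 of 5 higher. Of 6 stellate cell markers, 1 was higher (Dcn). The part of these shifts in the falls of Xbp1, Dnajb9 and Edem1 was not tested.

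The element printed above was set beside the calls. In HFD against CON, 1 of the 5 genes with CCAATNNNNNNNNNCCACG fell (Xbp1) and 3 of the 5 without it did (Dnajb9, Pdia4 and Edem1). In ZXD against CON the counts were 1 of 5 and 2 of 5. Of all tested genes, 10.9% fell in HFD against CON and 14.8% in ZXD against CON. The Pdia4 call in HFD and the Edem1 call in ZXD each held in only 12 of 24 fits, the main one included. The counts by element are descriptions of short windows.

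By root mean square difference of centred log2 CPM over the 15 libraries, the 5 tested genes nearest to Hspa5 were Hsp90b1 (0.160), Pdia4 (0.168), Dnajb11 (0.190), Pdia3 (0.200) and Rpn1 (0.201). All are genes of the endoplasmic reticulum: Dnajb11 is a BiP co-chaperone, Pdia3 a disulfide isomerase that works with calreticulin, and Rpn1 a subunit of the oligosaccharyltransferase. Xbp1 had other neighbours and none from the 10. The nearest were LOC498154 (0.270), Naif1 (0.293), Zfp1 (0.293), Srebf2 (0.295), which codes for the sterol-regulated factor SREBP-2, and Mvk (0.295), mevalonate kinase. Between Xbp1 and Hspa5 the difference was 0.583, and between Xbp1 and Dnajb9, its nearest among the 10, it was 0.416. For scale, a gene at the same level in all 15 libraries would differ by 0.348 from Hspa5 and by 0.592 from Xbp1. LOC498154, Naif1 and Zfp1 were low, with group means from 5.27 to 12.2 CPM.

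Other genes of the endoplasmic reticulum were taken from lists by role, also chosen with earlier results of these data known. The shares of all tested genes that fell and rose with TMM, given above for each comparison, apply to every list. They were 10.9% and 10.0% in HFD against CON, and 14.8% and 17.9% in ZXD against CON. For list counts on library totals the background differs: 5390 of the 13163 tested genes rose and 505 fell in HFD against CON. In ZXD against CON, 6046 rose and 628 fell on that scale. In HFD against CON, 7 of 20 other folding genes fell and 0 rose, with a median of -0.38. Those with the smallest p were Ero1b, an oxidase that feeds disulfide formation (27.7 ± 5.85 CPM in HFD, 62.3 ± 28.5 CPM in CON, edgeR adjusted p = 0.00589), Erp44, which retains proteins by their thiols (88.2 ± 8.58 CPM in HFD, 126 ± 15.7 CPM in CON, edgeR adjusted p = 0.00689), and Dnajc3, a BiP co-chaperone (213 ± 16.8 CPM in HFD, 329 ± 50.2 CPM in CON, edgeR adjusted p = 0.00745). In ZXD against CON, 5 of 20 fell and 0 rose, among them Pdia5, a disulfide isomerase (30.2 ± 14.4 CPM in ZXD, 107 ± 10.9 CPM in CON, edgeR adjusted p = 0.00629), Erp44 (93.7 ± 10.3 CPM in ZXD, edgeR adjusted p = 0.0121) and Cnpy2 (47.1 ± 4.88 CPM in ZXD, 58.9 ± 3.84 CPM in CON, edgeR adjusted p = 0.0157). On library totals Ero1b and Pdia5 kept their calls, while Erp44 (-0.10, edgeR adjusted p = 0.537, in HFD and -0.00067, edgeR adjusted p = 0.997, in ZXD) and Dnajc3 (-0.20, edgeR adjusted p = 0.180, in HFD) lost theirs and Cnpy2 turned to 0.10. On that scale the list median was 0.15 in ZXD and 0.043 in HFD, each against CON, and 3 folding genes rose and 1 fell in HFD, and 5 rose and 1 fell in ZXD. Without CON 3 or CON 4, 3 folding genes fell in HFD against CON.

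Of 14 genes of endoplasmic reticulum-associated degradation, the route that Edem1 and Herpud1 serve, 6 fell in HFD against CON and 7 in ZXD against CON, with 0 higher in either. Sel1l, which holds the ligase complex together, had 112 ± 36.6 CPM in HFD and 272 ± 48.7 CPM in CON (log2 fold change -1.28, edgeR adjusted p = 0.00119). Derl2, a membrane component of the export channel, was at 45.0 ± 7.41 CPM in ZXD, 46.7 ± 4.07 CPM in HFD and 77.3 ± 8.87 CPM in CON, and fell in both comparisons with CON (edgeR adjusted p = 0.000641 in ZXD and 0.00115 in HFD). Derl1, a relative of Derl2, fell by 0.49 in ZXD against CON (edgeR adjusted p = 0.00121). On library totals the Derl1 call was lost (-0.06, edgeR adjusted p = 0.635), those of Sel1l and Derl2 were kept, and 2 genes of the list fell and 2 rose in HFD, and 1 fell and 4 rose in ZXD. The list median there was 0.05 in ZXD and 0.09 in HFD, against -0.37 in ZXD and -0.33 in HFD with TMM.

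Among 21 genes of entry into the endoplasmic reticulum, glycosylation and export, 9 fell in HFD against CON and 6 in ZXD against CON, with 0 higher. Rpn2, a subunit of the oligosaccharyltransferase, was at 239.6 ± 22.6 CPM in ZXD, 210.4 ± 16.9 CPM in HFD and 348 ± 25.9 CPM in CON (edgeR adjusted p = 0.00312 in ZXD and 0.000540 in HFD, each against CON). In HFD against CON, Serp1, a translocon-associated protein, fell by 0.81 (edgeR adjusted p = 0.00444) and Ddost, another transferase subunit, by 0.44 (edgeR adjusted p = 0.00622). In ZXD against CON, Sec61a1, the channel itself, fell by 0.67 (edgeR adjusted p = 0.00474) and Ssr4 by 0.47 (edgeR adjusted p = 0.00748). On library totals the HFD call of Rpn2 was kept. Its ZXD call (-0.11, edgeR adjusted p = 0.393) and those of Serp1 (-0.39, edgeR adjusted p = 0.0730), Ddost (-0.017, edgeR adjusted p = 0.920), Sec61a1 (-0.24, edgeR adjusted p = 0.211) and Ssr4 (-0.039, edgeR adjusted p = 0.827) were lost. On that scale 1 gene fell and 2 rose in HFD, 0 fell and 4 rose in ZXD, and the list median was 0.20 in ZXD and 0.08 in HFD, against -0.25 in ZXD and -0.34 in HFD with TMM. Without CON 4 the HFD count was 5.

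Of 8 genes of the sensors and their proteases, 1 rose and 0 fell in HFD against CON, a share near that of all tested genes (Creb3, 32.1 ± 2.51 CPM in HFD and 23.5 ± 2.81 CPM in CON, edgeR adjusted p = 0.0184). In ZXD against CON, Creb3 also rose (31.4 ± 4.84 CPM in ZXD, edgeR adjusted p = 0.0169) and Creb3l3, a liver factor cut like ATF6, fell (399 ± 134 CPM in ZXD and 678 ± 89.0 CPM in CON, edgeR adjusted p = 0.0323), a call lost on library totals (-0.37, edgeR adjusted p = 0.180) and without CON 2, CON 3, CON 5 or ZXD 3 (edgeR adjusted p from 0.0599 to 0.0729 without these libraries). Atf6 was at 92.3 ± 14.8 CPM in ZXD, 53.2 ± 30.5 CPM in HFD and 83.4 ± 21.8 CPM in CON, and did not pass in any comparison (edgeR adjusted p from 0.163 to 0.766). Ern1, which codes for the IRE1 sensor, did not pass either (edgeR adjusted p from 0.402 to 0.818). On library totals 4 of the 8 rose in HFD and 5 in ZXD, where 5390 and 6046 of the 13163 tested genes rose.

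In the ATF4 and CHOP branch, the other arm of the response, 2 of 10 rose and 1 fell in HFD against CON, and 3 rose and 1 fell in ZXD against CON. On library totals 5 rose and 0 fell in HFD, and 3 rose and 0 fell in ZXD, where 5390 and 6046 of the 13163 tested genes rose. The list median there was 0.62 in ZXD and 0.51 in HFD, against 0.17 in ZXD and 0.09 in HFD with TMM. Over all genes the library-total median was 0.46 in ZXD and 0.44 in HFD. Asns, asparagine synthetase, was at 16 ± 4.21 CPM in ZXD, 16.1 ± 8.22 CPM in HFD and 1.57 ± 1.31 CPM in CON (edgeR adjusted p = 0.000590 in ZXD and 0.000641 in HFD, each against CON). Atf3, a stress-induced factor, rose by 2.32 in ZXD against CON (edgeR adjusted p = 0.00896, lost by limma voom at an adjusted p of 0.0508) and by 1.72 in HFD against CON (edgeR adjusted p = 0.0466). Its HFD call was lost when any of 9 libraries was left out (all 5 CON libraries, HFD 2, HFD 3, HFD 5 and ZXD 3, edgeR adjusted p from 0.0529 to 0.138), so that 1 of 10 rose. Chac1, which degrades glutathione, rose by 2.11 in ZXD against CON (edgeR adjusted p = 0.0253), a call lost without CON 1, CON 2, CON 4 or ZXD 2 (edgeR adjusted p from 0.0502 to 0.0622). Sesn2 fell by 0.95 in HFD (edgeR adjusted p = 0.00714) and by 0.83 in ZXD (edgeR adjusted p = 0.00988), each against CON. Both calls were lost on library totals (-0.53, edgeR adjusted p = 0.0542, in HFD and -0.40, edgeR adjusted p = 0.125, in ZXD), and with TMM the lower count in ZXD was 2 without CON 1, CON 4, HFD 1 or ZXD 4. Atf4 itself did not pass in any comparison (edgeR adjusted p from 0.0892 to 0.506), nor did Ddit3, the gene of CHOP (edgeR adjusted p from 0.0634 to 0.592).

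Chaperones outside the endoplasmic reticulum formed the last list. Of 12 cytosolic and mitochondrial heat shock genes, 6 fell in HFD against CON and 5 in ZXD against CON, with 0 higher. The list median was -0.62 in ZXD and -0.61 in HFD, each against CON, and -0.20 in ZXD and -0.18 in HFD on library totals. Dnaja1, a cytosolic J-domain protein, was at 180.5 ± 34.4 CPM in ZXD, 182 ± 49.2 CPM in HFD and 372 ± 102 CPM in CON (edgeR adjusted p = 0.00424 in ZXD and 0.00616 in HFD, each against CON). Hspa1a, the inducible cytosolic Hsp70, was at 3.61 ± 1.35 CPM in ZXD, 5.61 ± 2.18 CPM in HFD and 18.9 ± 14.3 CPM in CON, and fell in both (edgeR adjusted p = 0.00392 in ZXD and 0.0224 in HFD). Its HFD call was lost without CON 4, HFD 2 or HFD 5 (edgeR adjusted p from 0.0547 to 0.0742). Hsph1 fell by 1.37 in HFD against CON (edgeR adjusted p = 0.00676) and Bag3 by 0.79 in ZXD against CON (edgeR adjusted p = 0.00448), a call lost on library totals (-0.36, edgeR adjusted p = 0.0877). The HFD count was 2 or 3 when any of CON 2, CON 3, CON 4, CON 5, HFD 2, HFD 3, HFD 4, HFD 5, ZXD 3 or ZXD 5 was left out, the ZXD count was 8 without CON 1, and on library totals 3 fell in HFD and 2 in ZXD.

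**Figure D4:**
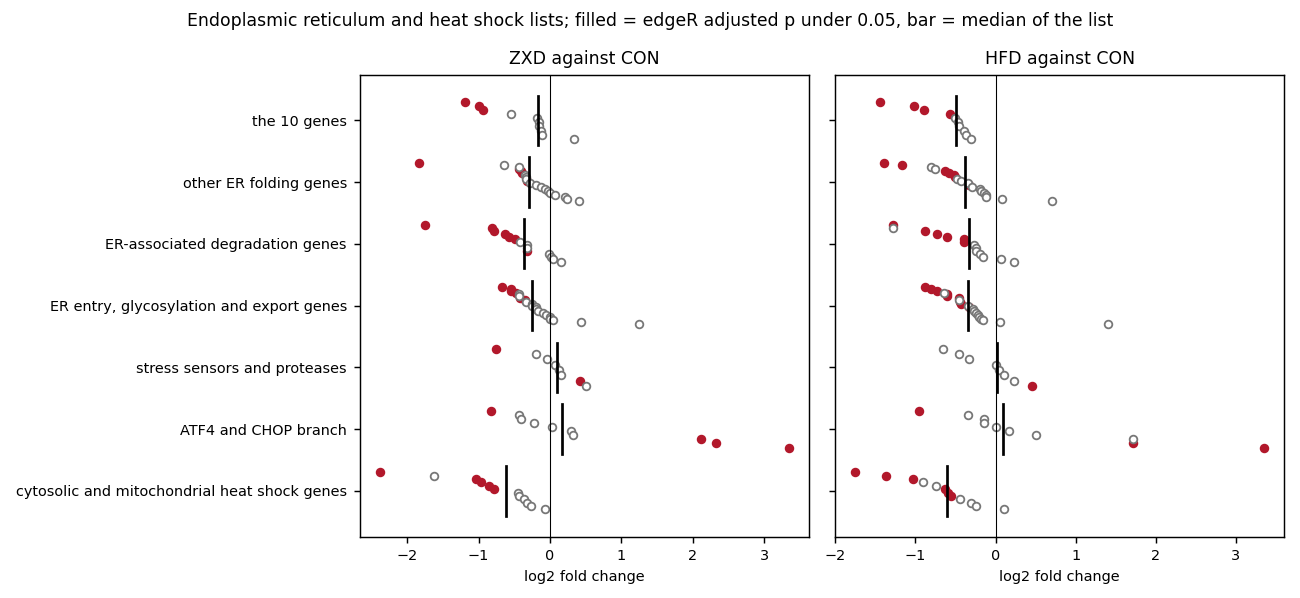
Log2 fold change of each tested gene in ZXD against CON and in HFD against CON, by list, with the 10 genes at the top (filled where the edgeR adjusted p is under 0.05, bars at the median of a list). In HFD against CON the medians of the 10 genes and of the other folding, degradation and entry lists lie at -0.49, -0.38, -0.33 and -0.34 with TMM and at -0.06, 0.043, 0.09 and 0.08 on library totals (not drawn), whereas Asns lies at 3.35.

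In ZXD against HFD none of these lists held a called gene by edgeR. The smallest p in each list belonged to Uggt1, the glucosyltransferase that senses folding of glycoproteins (103 ± 30.5 CPM in ZXD, 53.3 ± 16.4 CPM in HFD, edgeR adjusted p = 0.155, DESeq2 adjusted p = 0.0385), Sel1l (155 ± 31.3 CPM in ZXD, edgeR adjusted p = 0.290), Lman1, a cargo receptor (105 ± 10.7 CPM in ZXD, 72.6 ± 29.1 CPM in HFD, edgeR adjusted p = 0.271), Atf6 (edgeR adjusted p = 0.248), Atf4 (77.8 ± 21.1 CPM in ZXD, 116 ± 16.7 CPM in HFD, edgeR adjusted p = 0.175) and Bag3 (35.2 ± 2.6 CPM in ZXD, 44.9 ± 12.2 CPM in HFD, edgeR adjusted p = 0.323). The second in each were Ero1a, Edem3, Serp1, Eif2ak3, Ddit4 and Hsp90aa1 (edgeR adjusted p from 0.213 to 0.396).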

How the data were processed

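Trizol-purified liver RNA went into Illumina libraries, per the labels' protocols. The authors deposited 1 table with whole-number read counts and FPKM values per gene and library, as its file headers say. edgeR, without a role, appears in the submitters' processing notes. The aligner, counter, genome build, annotation and strand use were not given in the sources used here. The deposited FPKM was the count over gene length and library total (100% of values above 0 within 0.01%) and was used only to rank genes within a group. The length column of the table, in bases, was used for that check. No column was left without a sample. By the table's coordinates, 0 annotated genes overlap any of the 10.

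With filterByExpr (by group, at least 10 counts and 15 in total) there remained 13163 genes holding 99.833% or more of every library, and 8413 stayed untested. Counts were scaled with TMM factors and fitted in edgeR 4.0.16 (R 4.3.3) with robust dispersion and glmQLFit over all 15 libraries, with group as the only term and 12 residual degrees of freedom. glmQLFTest gave each comparison, p-values were adjusted by Benjamini-Hochberg over all tested genes, and calls needed an adjusted p below 0.05, whatever the fold. SE is the log2 fold change over the square root of F. Log2 CPM carries a prior count of 2. DESeq2 1.42.0, limma 3.58.1 (voom), other scales, other filters, a replicate block and the omission of each library were alternatives. The script was tested on simulated counts.

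The 10 genes and the lists were chosen with earlier results of these data known. The genes named are the 10 and, from each list, up to 3 called genes in each direction with the smallest adjusted p (if none, the 2 with the smallest p), and the 5 genes nearest to Xbp1 and to Hspa5. Atf6, Ern1, Atf4 and Ddit3 were named for their role where the rule did not reach them, after their values were seen. One gene that the rule names is not reported here. Of 85 list entries beside the 10, 85 were tested.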

Additional observations from a re-analysis of the deposited data

How the results depend on the processing

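Over 8 other settings and the omission of each of 15 libraries, Xbp1, Dnajb9 and Edem1 in HFD against CON and Xbp1 and Dnajb9 in ZXD against CON were called each time. The number of the 10 genes called lower ran from 3 to 4 in HFD against CON and from 2 to 4 in ZXD against CON, with 0 higher under any setting. On library totals, the median log2 fold change of the 10 moved to -0.06 in HFD against CON and to 0.28 in ZXD against CON, by construction of the scale. Signs also turned there for Hspa5 (0.039), Herpud1 (0.11) and Creld2 (0.06) in HFD against CON, and for Hspa5 (0.31), Hsp90b1 (0.33), Pdia4 (0.25), Calr (0.31), Creld2 (0.32) and Cnpy2 (0.10) in ZXD against CON. With a library left out, Dnajb9 in ZXD against HFD ran from -0.14 to 0.040, and Creld2 in ZXD against CON from -0.30 to 0.18, positive without CON 3. Pdia4 in HFD against CON was also lost with no low-count filter (edgeR adjusted p = 0.0503) and by limma voom (adjusted p = 0.0565), and Edem1 in ZXD against CON with no low-count filter (edgeR adjusted p = 0.0528) and by limma voom (adjusted p = 0.0596). Atf3 and Hspa1a in HFD against CON and Atf3 and Chac1 in ZXD against CON were lost by limma voom as well. The cause was not tested.

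Over all genes, HFD against CON gave 1322 higher and 1436 lower calls, against 5390 and 505 on library totals, 793 higher by limma voom, 754 to 1630 higher and 925 to 1645 lower with a library left out (past 1.5 times without CON 3, CON 4, CON 5, HFD 2 or HFD 5). ZXD against CON gave 2356 and 1943, against 6046 and 628 on library totals and 1531 higher by limma voom. ZXD against HFD gave 0 to 6 higher and 0 to 1 lower calls with a library left out. Correlations of the deviations of same-numbered libraries ran from -0.0778 to 0.260 between HFD and CON (0.244, 0.215 and 0.260 for numbers 1 to 3, each of which correlated best with its own number, unlike 4 and 5), from -0.547 to 0.105 between ZXD and HFD and from -0.158 to 0.0149 between ZXD and CON, so the numbers were not taken as pairs. With the replicate number as a block, 3 of the 10 genes were lower in HFD against CON (Pdia4 at an edgeR adjusted p of 0.0634) and 2 in ZXD against CON (Edem1 at 0.0558). Atf3 (0.111) and Hspa1a (0.0688) in HFD against CON and Creb3l3 (0.0624) in ZXD against CON lost their calls, 2 heat shock genes were lower in HFD against CON in place of 6, and all-gene higher calls in HFD against CON were 792. Among the 10 genes, Sdf2l1, with 52 to 420 counts, had the widest errors.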
